A study of Mus musculus with 165 samples.

Results

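In resting neutrophils, 471 stretches of the mouse autosomes lay in compartment B that lay in compartment A both in the progenitors of these cells and in separately prepared neutrophils of the same line after 15 and after 30 min with a calcium ionophore. They were found with the first principal component (PC1) of in situ Hi-C matrices, a score without a unit given for 25 kb bins. A bin was a member where its PC1 was below zero in untreated neutrophils and above zero in progenitors, at 15 min and at 30 min, and where at least 2 adjacent bins met this rule. The members were 1950 of the 94800 autosomal bins that held a non-zero value in all 4 tracks, which is 48.75 of 2370 Mb or 2.06%. The signs alone were met by 2244 bins, of which 294 stood singly and were left out by the run rule.

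In situ Hi-C cross-links chromatin inside the nucleus and ligates DNA ends that lie close together, so that the sequenced pairs report contacts. Chromatin segregates into compartment A, which tends to be gene-rich and transcribed, and compartment B, which tends to be gene-poor, silent and often at the nuclear lamina. Neutrophils form from myeloid progenitors in the bone marrow, and their nuclei become lobed and rich in condensed chromatin as they mature. A rise of calcium inside the neutrophil is an early signal of its activation by chemoattractants and microbes, and a calcium ionophore such as A23187 bypasses the receptors by carrying calcium across membranes.

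All cells were ECOMG cells, a myeloid line of C57BL/6 mice that needs GM-CSF and carries human E2A_ER_Pbx1b on an otherwise wild type background. Progenitors were kept undifferentiated with estradiol, and neutrophils were obtained by 5 days without it. Activated neutrophils received 20 uM A23187 in medium whose calcium chloride was brought to 1 mM. The series asks how calcium signalling modulates the architecture of the nucleus. The model is 1 cell line differentiated in culture, so that its replicates do not stand for different animals. Expression was not measured in the files used here, so the identity of the cells could not be checked with marker genes.

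The progenitor track pools 7 libraries and the untreated track pools 8 libraries from 7 replicates, while the 15 min track belongs to a sample labelled replicate 2 and the 30 min track to one labelled replicate 1. With 1 track per group, no difference below has a replicate check and no p-value is given. The progenitor and untreated libraries are marked as re-analysed and share a described sequencing protocol, and the activated libraries were sequenced on other instruments. Untreated cells therefore cannot be told apart from their sequencing batch in any comparison with activated cells. How many reads lie behind a track is unknown. A window of 50 kb lies behind each bin, so neighbouring bins share reads. PC1 has its zero at the mean of each chromosome. Of the autosomal bins, 42.9% lay above zero in progenitors and 41.7% in untreated neutrophils, followed by 46.9% at 15 min and 44.0% at 30 min.

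The members were chosen by the PC1 values of all 4 tracks, which are given first, as a description. The mean PC1 of a region had a median of 0.532 in progenitors (quartiles 0.285 and 0.774, lowest 0.0282, highest 1.56). In untreated neutrophils the median was -0.177 (quartiles -0.252 and -0.104, lowest -0.643, highest -0.0131). After 15 min of A23187 it was 0.363 (quartiles 0.226 and 0.535, lowest 0.0240, highest 1.07), and after 30 min it was 0.418 (quartiles 0.226 and 0.719, lowest 0.00972, highest 1.42). The rule separates the untreated values from the other 3 by construction, whereas the ranges of those 3 overlap over most of their length.

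**Figure D1:**
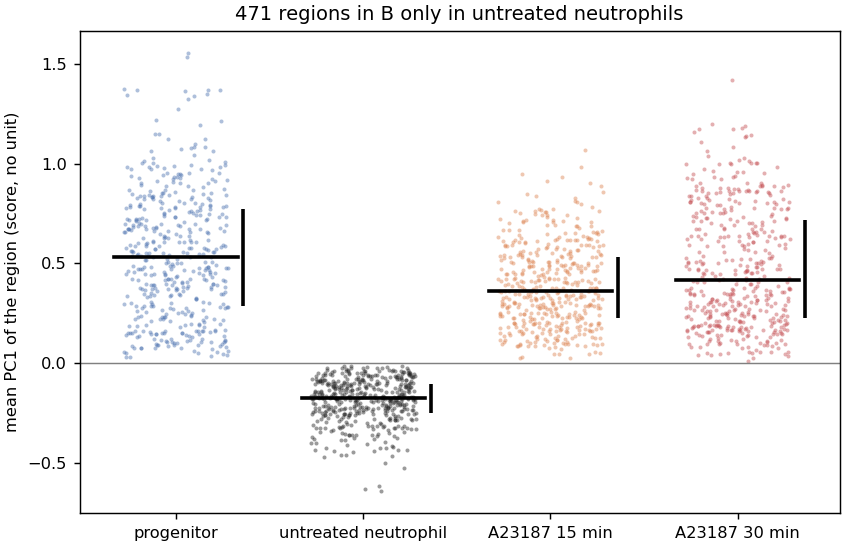
Mean PC1 (score, vertical axis) of each of the 471 regions in the 4 tracks (horizontal axis), with the median as a horizontal bar and the quartiles as a vertical bar. The untreated values reach from -0.643 to -0.0131 with a median of -0.177, and the medians of the other tracks are 0.532, 0.363 and 0.418.

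By untreated PC1, the members lay at shallow levels of B. The median untreated PC1 was -0.188 over member bins and -0.859 over all autosomal bins below zero in that track. The lowest member bin had an untreated PC1 of -0.748. A regional mean of -0.25 or lower occurred in 120 of the 471 regions (25.5%) and one of -0.5 or lower in 5. The A levels of members were low as well, since over all bins above zero the median PC1 was 1.17 in progenitors, 1.10 at 15 min and 1.18 at 30 min. Ranked among all autosomal bins of the same track, the median member bin stood at percentile 66.2 in progenitors and 54.9 in untreated neutrophils, followed by 60.2 at 15 min and 63.1 at 30 min. All these values were used by the rule, which asks for B in untreated neutrophils and A in every other track. What part of the low levels this choice sets was not tested.

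The untreated value was most often the one that lay nearest to the boundary. It was nearest to zero among the 4 tracks in 1133 member bins (58.1%), followed by 15 min in 380, 30 min in 266 and progenitors in 171. Some track lay within 0.1 of zero in 895 member bins (45.9%). The 5 member bins closest to the threshold were 0.000303 to 0.000996 from zero in their nearest track, and the 5 non-member bins closest to membership missed by 4.16e-05 to 0.000600. Among bins that failed the rule in 1 track only, those that missed by under 0.1 numbered 808 of 35811 in untreated neutrophils, 217 of 732 at 30 min, 184 of 875 in progenitors and 168 of 456 at 15 min.

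The local roughness of each track was taken from the deviation of a bin from the mean of the bins 50 kb before and after it, whose windows it does not share. It holds measurement noise and true local structure together. In the untreated track its SD was 0.148, and 1173 member bins (60.2%) lay more than 1 such SD below zero and 27.4% more than 2. The variance was 0.0220 in the untreated track, 0.0129 in progenitors, 0.0118 at 15 min and 0.00587 at 30 min, so the track that defines the members was the roughest of the 4. At the members it was 0.0291, 0.0131, 0.0138 and 0.00689, in the same order of tracks, over bins that were chosen for an untreated value below the others. The untreated track also changed sign 3529 times along the autosomes, the progenitor track 2607 times, the 15 min track 2871 times and the 30 min track 2171 times. The part of this roughness in the members was not tested.

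Most regions were short. Of the 471, 163 spanned 2 bins, 162 spanned 3 or 4, 119 spanned 5 to 9 and 27 spanned 10 or more, and the median length was 75 kb. The 27 longest held 18% of the member bins. Depth went with length, as the median untreated PC1 was -0.130 in regions of 2 bins, -0.170 in those of 3 or 4, -0.210 in those of 5 to 9 and -0.327 in those of 10 or more. Across the 471 regions, Pearson's r of length with the untreated mean was -0.319 and Spearman's rho was -0.342, a description over regions that share 1 library pool. Length and depth both come from untreated values that the rule used, in bins that share reads with their neighbours. What part of the trend this sets was not tested.

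The longest region lay on chromosome 6 (mm9, 127650001 to 128125000, 475 kb). Its mean PC1 was 0.977 in progenitors and -0.398 in untreated neutrophils, followed by 0.251 at 15 min and 0.376 at 30 min. Within it, untreated bins ranged from -0.519 to -0.183 and progenitor bins from 0.853 to 1.13. At 15 min it had reached 47.2% of the distance from the untreated to the progenitor level, and at 30 min 56.3%.

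A region of 450 kb on chromosome 12 (75450001 to 75900000) had means of 0.420 in progenitors and -0.386 in untreated neutrophils, followed by 0.301 at 15 min and 0.361 at 30 min. Here the activated values were close to the progenitor value, at 85.2% and 92.6% of the distance. Another of 450 kb on chromosome 6 (84050001 to 84500000) gave 0.741, -0.361, 0.479 and 0.335 in the same order of tracks, with the 15 min value above the 30 min value. On chromosome 4 (119500001 to 119950000, 450 kb) the means were 0.803, -0.177, 0.602 and 0.370, again with the higher activated value at 15 min.

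The region of 450 kb on chromosome 1 (60525001 to 60975000) differed from these in shape and order. Its means were 0.305 in progenitors and -0.291 in untreated neutrophils, followed by 1.07 at 15 min and 0.587 at 30 min, so both activated values exceeded the progenitor value. It was the edge of a B segment of 1350 kb in untreated neutrophils and not a separate patch. The 15 min value was the highest of any member region in that track.

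The next regions by length lay on chromosomes 13 and 16. On chromosome 13 (36550001 to 36975000, 425 kb) the means were 0.560, -0.257, 0.574 and 0.864, and on chromosome 16 (34200001 to 34625000, 425 kb) they were 0.812, -0.242, 0.620 and 0.871. Both stood higher at 30 min than in progenitors. A region of 350 kb further along chromosome 16 (37150001 to 37500000) had the lowest untreated mean of the 10 longest, with 0.261, -0.428, 0.409 and 0.406.

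The last 2 of the 10 longest spanned 325 kb each. That on chromosome 1 (180475001 to 180800000) had 1.13 in progenitors and -0.327 in untreated neutrophils, followed by 0.371 at 15 min and 0.759 at 30 min. That on chromosome 6 (82100001 to 82425000) had 0.826, -0.322, 0.296 and 0.483. In both, the value was higher at 30 than at 15 min and below the progenitor value.

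**Figure D2:**
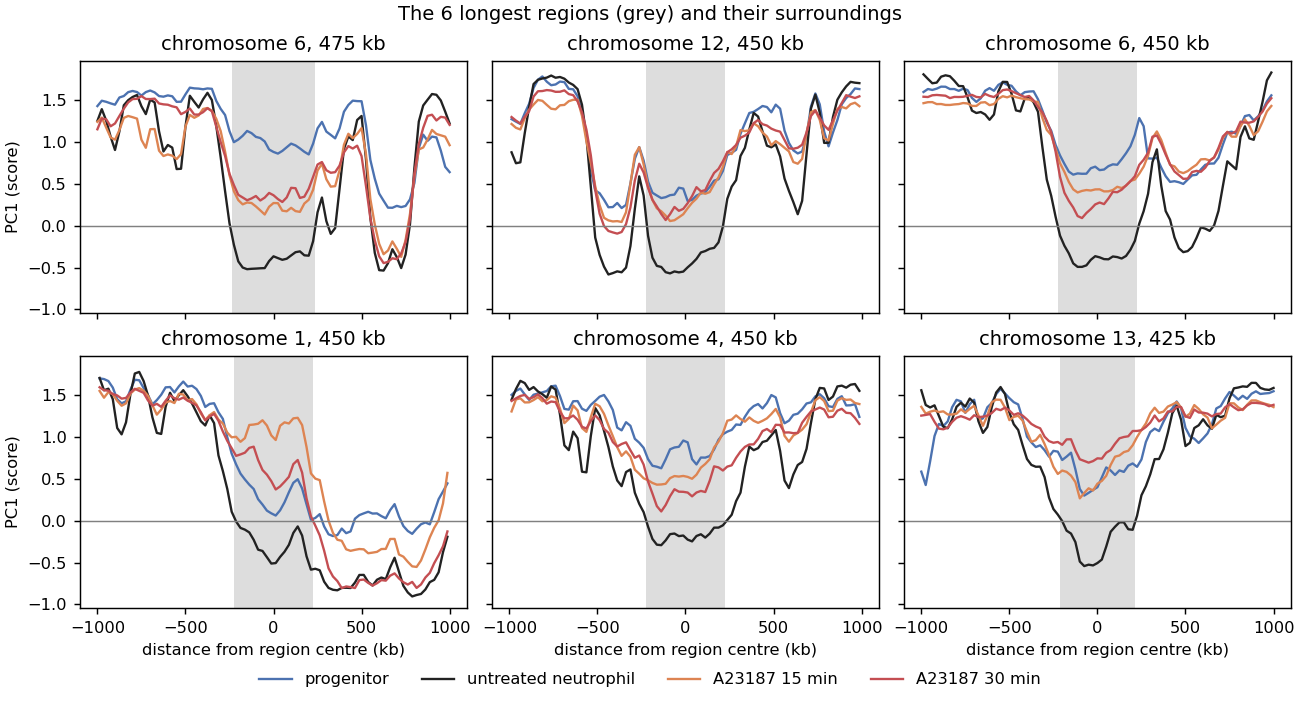
PC1 (score, vertical axis) in the 4 tracks over 1000 kb on each side of the centre of the 6 longest regions (horizontal axis, kb), with the region in grey. In 5 of the 6 panels, all but that of chromosome 1 with 450 kb, the untreated line falls below zero in the grey stretch and is above zero directly on both sides.

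A second set of regions was named by how far the untreated value stood from the other 3 tracks. The gap was taken as the lowest of the 3 A levels minus the untreated mean, in the 209 regions of 4 or more bins, where its median was 0.516. The largest gap, 0.979, was found on chromosome 17 (6150001 to 6250000, 100 kb), with means of 1.10 in progenitors and -0.155 in untreated neutrophils, followed by 0.948 at 15 min and 0.825 at 30 min. A region of 150 kb on chromosome 2 (121525001 to 121675000) had nearly the same gap, with 0.997, -0.0621, 0.916 and 0.958. Its 3 A levels were within 0.1 of one another, and only the untreated track departed from them.

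Others of this set lay close together on chromosomes 13 and 16. On chromosome 13, the region at 95375001 to 95525000 had 0.934, -0.227, 0.688 and 0.890 and that at 94325001 to 94450000 had 0.951, -0.163, 0.747 and 1.13. On chromosome 16, the region at 35150001 to 35250000 had 0.788, -0.119, 0.776 and 0.890, and that at 35450001 to 35600000 had 1.01, -0.104, 0.763 and 0.861. The 425 kb region of chromosome 16 described above, which belongs to the same A segment of 6700 kb in progenitors, was the 1 region to be among both the 10 longest and the 10 with the largest gap.

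Single regions of this set came from 3 further chromosomes. They were chromosome 5 (74075001 to 74275000; 0.724, -0.226, 0.743 and 1.01), chromosome 10 (60300001 to 60500000; 0.847, -0.285, 0.608 and 0.775) and chromosome 8 (107225001 to 107450000; 0.777, -0.194, 0.664 and 1.04). All 10 regions with the largest gap had A on both sides in untreated neutrophils.

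The 5 regions with the lowest untreated mean, singled out after their values were seen, were of another kind. The lowest lay on chromosome 19 (37800001 to 37875000), with 0.112 in progenitors and -0.643 in untreated neutrophils, followed by 0.169 at 15 min and 0.120 at 30 min. The next lay on chromosome 3 (102200001 to 102250000), with 0.0577, -0.635, 0.488 and 0.0782. A region on chromosome 7 (131725001 to 131775000) had 1.32, -0.617, 0.348 and 0.0929. None of the 5 had A on both sides in untreated neutrophils, and they were 50 to 200 kb long.

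The neighbourhood of the regions was not used by the rule, although adjacent bins share reads with them. In untreated neutrophils, 239 regions (50.7%) had A directly on both sides and so formed islands of B inside A. Another 207 (43.9%) had A on 1 side and B on the other and so extended a longer B segment, 21 (4.46%) lay inside B, and 4 bordered a gap in the data. The islands held 1183 of the member bins and had a median length of 100 kb. Of the 27 regions of 10 or more bins, 24 were islands and 3 were edges.

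The bins directly beside islands were nearly all A in every track. In 237 of the 239 islands, both flanking bins were above zero in all 4 tracks. Over all regions, 685 flanking bins (72.7%) were A in all 4 tracks, beside 37.8% of autosomal bins. For islands, A in the untreated track is fixed by their definition. The other tracks are above zero in the adjoining member bin by the rule, and the flanking bin shares reads with it. How much of these counts the selection sets was not tested. For edges, the bin on the B side was above zero in progenitors and at 30 min but not at 15 min in 68 of 207, above zero in progenitors and at 15 min but not at 30 min in 78, and above zero at both times but not in progenitors in 33. In 5 it was below zero in all 4 tracks. A low count is favoured by the rule, since this bin adjoins one that is above zero in every track but the untreated one. Whether edges met B chromatin common to all tracks further out was not tested.

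The islands were low points of their surroundings in other tracks too. Against the mean of the 4 bins on each side, the median difference of an island was -0.605 in untreated neutrophils, -0.351 at 15 min, -0.268 in progenitors and -0.216 at 30 min. In the untreated track a dip is fixed by the choice of islands, and its greater depth there is largely set by the same choice. In 219 of 239 islands (91.6%) the region lay below its flanks in all 4 tracks. For edges the median differences were -0.286, -0.148, -0.133 and -0.113 in that same order of tracks. Over all autosomal bins the untreated track had Pearson's r of 0.945 with progenitors, 0.962 with 15 min and 0.955 with 30 min. What part of the dips in those tracks the choice by untreated values sets was not tested.

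The lower untreated level reached past the borders of the regions. At 125 kb to the left of islands, the mean PC1 over regions was 0.737 in untreated neutrophils and 1.01 in progenitors, and at 1000 kb it was 0.355 and 0.493. Where the flanking bin was A in all 4 tracks, the untreated value was the lowest of the 4 in 96.1% at 25 kb from the border, in 80% at 50 kb and in 53.2% at 100 kb. The share was 42.1% at 250 kb, 35.4% at 500 kb and 31.9% at 1000 kb. Over all autosomal bins that were A in all 4 tracks it was 26.9%, so the excess was largest in the first 100 kb and small at 1000 kb. The first of these bins share reads with the region. Bins of neighbouring regions are B in untreated neutrophils and so are left out of the shares, but some bins counted may lie beside such regions.

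**Figure D3:**
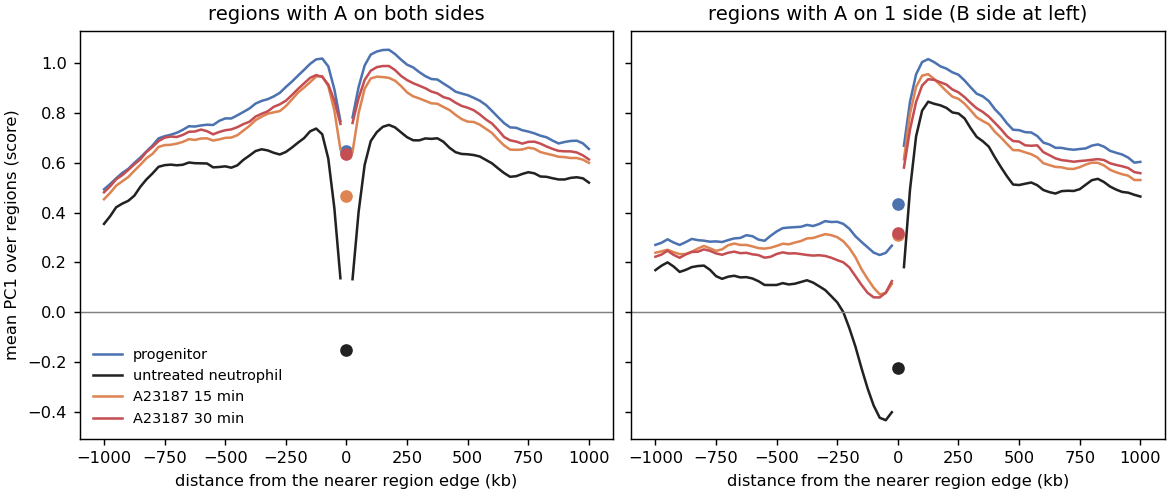
Mean PC1 over regions (score, vertical axis) by distance from the nearer region border (kb, horizontal axis), for the 239 islands on the left and the 207 edges on the right, with the B side of edges drawn at left. Dots are the means of the regions themselves, which for islands are 0.648 in progenitors and -0.150 in untreated neutrophils, followed by 0.467 at 15 min and 0.636 at 30 min.

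Seen from the progenitor, the regions were interruptions of long A segments. In 404 of 471 (85.8%), progenitors had A on both sides. Member bins are above zero in progenitors by the rule, and flanking bins share reads with them, so a high count is favoured. The A segment around a member bin had a median length of 3050 kb in progenitors, beside 2375 kb over all progenitor A bins and 1100 kb over progenitor A bins with a PC1 below 1. Of the 1352 A segments of progenitors, 255 (18.9%) held at least 1 member region and 111 held 2 or more. In untreated neutrophils the B segment around a member bin had a median of 225 kb, beside 1625 kb over all B bins. The rule asks for A in every other track there, and what part of these lengths and counts it sets was not tested.

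Many of the short B segments of untreated neutrophils were members from end to end. This was so for 242 regions. By segment length, it held for 141 of 336 untreated B segments of 2 to 4 bins (42.0%), for 77 of 353 of 5 to 9 bins (21.8%) and for 24 of 1133 of 10 or more bins (2.12%). In the authors' deposited list of negative domains of the untreated track, 305 of 1492 autosomal domains (20.4%) held a member bin and 134 consisted of member bins alone. The latter had a median length of 150 kb, and all autosomal negative domains one of 500 kb. In all, 1687 member bins (86.5%) lay in negative domains and 263 in no domain, beside 98.9% and 1.05% of all untreated bins below zero. The 110 regions outside these domains spanned 2 bins (67 regions) or 3 bins (43 regions).

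The progenitor and activated levels did not rank the same way from region to region. Progenitors had the highest of the 3 A levels in 221 regions, 30 min in 156 and 15 min in 94. The lowest was at 15 min in 225, at 30 min in 136 and in progenitors in 110. Progenitors stood above 15 min in 315 regions (66.9%) and above 30 min in 267 (56.7%), and the 30 min level exceeded the 15 min level in 287 (60.9%). Counted by bins, progenitors stood above 15 min in 70.8% of member bins, beside 61.7% of the bins that were A in all 4 tracks. They stood above 30 min in 57.7%, beside 55.7%, and 30 min stood above 15 min in 62.6%, beside 62.7%.

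A second background was taken from the low range of progenitor A in which members lie. The quartiles of progenitor PC1 over member bins were 0.331 and 0.800, and 5641 bins that were A in all 4 tracks lay between them. Among those, progenitors stood above 15 min in 23.9% and above 30 min in 32.1%, and 30 min above 15 min in 40.5%. Their median PC1 was 0.592 in progenitors and 0.718 in untreated neutrophils, followed by 0.795 at 15 min and 0.728 at 30 min. Over all member bins, not cut to this range, the medians were 0.395 at 15 min and 0.463 at 30 min. Both sets were selected on the signs of all 4 tracks, which fixes the order of their untreated values, so these values are a description. The background was also chosen by a low progenitor value, which favours activated values above it. Its shares for progenitors above 15 min and above 30 min are therefore no neutral standard for the members.

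How far the regions came back was expressed as the rise from the untreated level in percent of the distance to the progenitor level. Its median was 79.2% at 15 min (quartiles 59.3 and 114) and 93.6% at 30 min (quartiles 67.5 and 123). The rule fixes a rise in every region, so these values are a description. Bins that were not above zero at both times are left out by the rule. Of all 4249 bins A in progenitors and B in untreated neutrophils, 52.8% were above zero at both times. The progenitor level was passed at 15 min in 156 regions, at 30 min in 204, at both times in 110 and at neither in 221. Islands and edges differed in order of the times. The 30 min level was above the 15 min level in 181 of 239 islands (75.7%) and in 95 of 207 edges (45.9%). The median of the recovered percentage in islands was 78.3 at 15 min and 98.7 at 30 min, and in edges 82.2 and 84.1. Time goes with replicate number here, so the order of the times cannot be told apart from a difference between these samples.

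Across the 471 regions, the progenitor level went with the activated levels to a limited degree. Pearson's r was 0.480 with 30 min and 0.281 with 15 min (Spearman's rho 0.441 and 0.281), and 0.338 between 15 and 30 min (rho 0.292). The untreated level had r of 0.358 with 15 min, 0.359 with 30 min and 0.110 with progenitors. These are descriptions over regions chosen to lie in a narrow range, and over all autosomal bins r between tracks was 0.945 to 0.972.

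The members form part of a larger set of bins that went from A in progenitors to B in untreated neutrophils, which numbered 4249 or 4.48% of autosomal bins. Of these, 2244 (52.8%) were above zero at both activated times, which are the members and the 294 single bins. Another 732 (17.2%) were above zero at 15 min only, 456 (10.7%) at 30 min only and 817 (19.2%) at neither. The 4 sets differed in depth, with a median untreated PC1 of -0.170, -0.347, -0.402 and -0.539 in that order. The median progenitor PC1 was 0.538, 0.271, 0.282 and 0.160, so bins that were above zero at both times lay higher in both tracks than those above zero at neither. As background, 5.98% of autosomal bins went from B to A between untreated neutrophils and 15 min and 4.38% between untreated neutrophils and 30 min, which are 10.2% and 7.51% of the untreated B bins. Both of these comparisons use the same untreated track as the first.

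The share that was back in A was smaller the deeper the bins lay in the untreated track. Among the 4249 bins, 84.6% were above zero at both times where the untreated PC1 was between 0 and -0.1, 65.3% between -0.2 and -0.3, 32% between -0.4 and -0.5 and 12.5% between -0.5 and -0.75. Of the 126 bins below -0.75, 0 were. By progenitor level the share was 30.4% at a PC1 of 0 to 0.25, 71.6% at 0.5 to 0.75, 90.6% at 0.75 to 1 and 83.0% at 1 or more. The bins were chosen by the same untreated and progenitor values that divide them here. How much of either trend this choice sets was not tested. Members were scarcest among strong A bins of progenitors. They made up 9.37% of progenitor A bins at 0 to 0.25, 12.7% at 0.25 to 0.5, 13.2% at 0.5 to 0.75, 8.95% at 0.75 to 1 and 0.668% at 1 or more. Bins that were B in untreated neutrophils, whatever their activated level, were 42.8% at 0 to 0.25 and 0.845% at 1 or more. The rule used the progenitor value here too, and what part of the difference it sets was not tested.

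**Figure D4:**
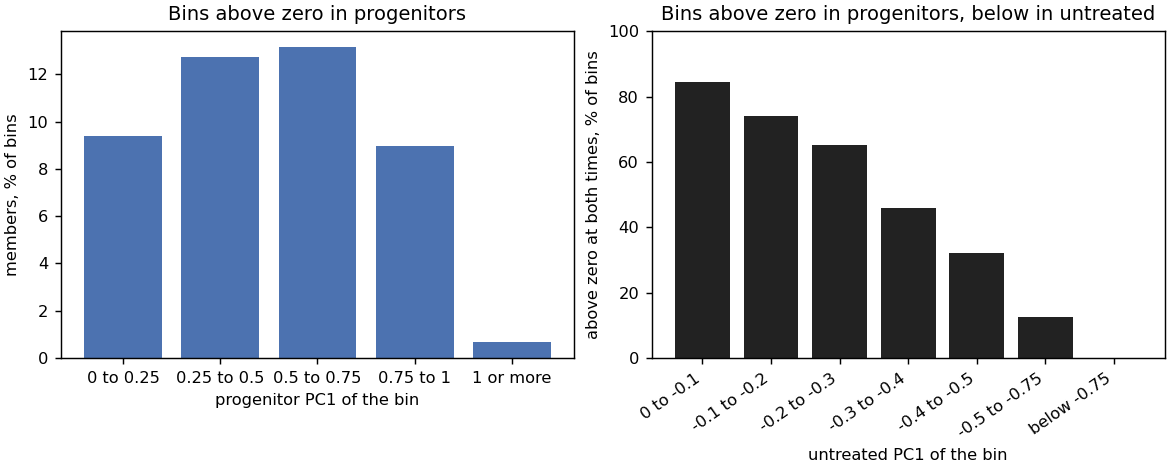
Left, members as a percentage of progenitor A bins (vertical axis) by progenitor PC1 (horizontal axis), where the share lies between 8.95% and 13.2% up to a PC1 of 1 and is 0.668% above it. Right, the percentage of bins A in progenitors and B in untreated neutrophils that were above zero at both activated times (vertical axis) by untreated PC1 (horizontal axis), which falls from 84.6% to 0. Both panels divide bins by values that the rule used.

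The regions that were A in progenitors alone were the nearest comparison, since they share the first step and lack the second. They numbered 159 with 700 bins (0.738% of autosomal bins). Their median region means were 0.147 in progenitors and -0.525 in untreated neutrophils, followed by -0.218 at 15 min and -0.281 at 30 min. Of them, 125 (78.6%) lay inside B in untreated neutrophils and 3 (1.89%) were islands, beside 4.46% and 50.7% of member regions. Median length was 75 kb in both sets. The signs that define each set fix part of this difference, and it was not tested.

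The mirror pattern, A in untreated neutrophils alone, was found in 284 bins and 94 regions (0.3% of autosomal bins). It had fewer bins than the member set on 19 of 19 autosomes. Mirror regions had a median length of 50 kb, an untreated median of 0.187 and medians of -0.356 in progenitors, -0.205 at 15 min and -0.367 at 30 min. In untreated neutrophils, 30 of them (31.9%) had B directly on both sides, 57 had B on 1 side and 5 (5.32%) lay inside A.

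The excess of members over mirror bins depended on where zero was placed. With every track quantile-normalized to the untreated one, which gives all tracks the same share of A, 963 bins were B in untreated neutrophils alone and 814 were A alone. With zero at each track's autosomal median, the numbers were 824 and 828, and the direction was lost. This moves zero by -0.393 in progenitors and -0.409 in untreated neutrophils, followed by -0.176 at 15 min and -0.341 at 30 min, and 232 of the 824 bins were among the 1950. The 963 bins under quantile normalization were all among the 1950.

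Each of the other tracks was treated in the same way, as the odd one out. Progenitors alone were below zero in 1059 bins and above zero in 700. The 15 min track alone was below zero in 95 and above zero in 1294, and the 30 min track alone in 246 and 435. The untreated track had the most bins below zero alone, and the 15 min track, which has the largest share of A, the most above zero alone. After quantile normalization the numbers below and above were 880 and 1078 for progenitors, 295 and 417 for 15 min and 355 and 529 for 30 min. The untreated track then still had the most bins below zero alone, and with zero at the median progenitors did, with 902 against 824.

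**Figure D5:**
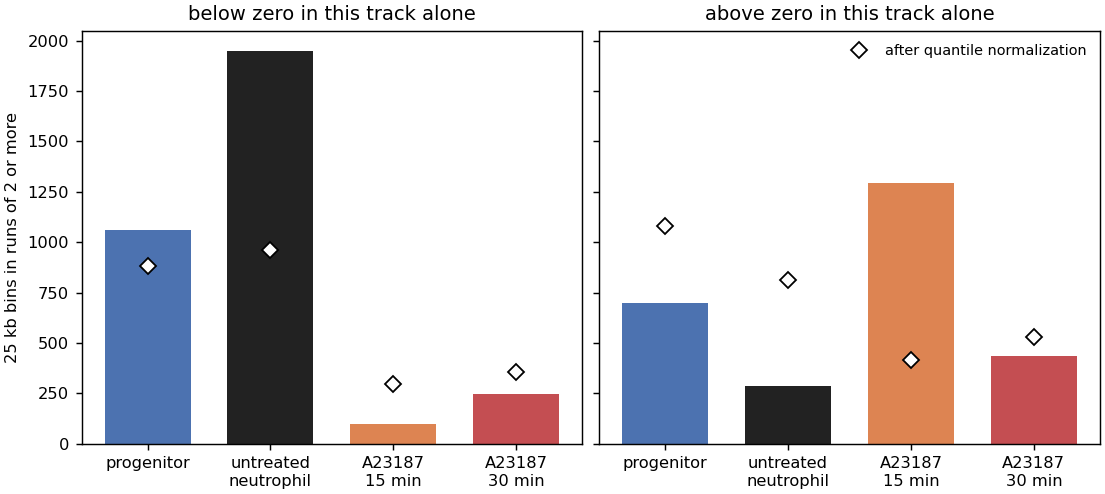
Number of 25 kb bins in runs of 2 or more (vertical axis) where 1 track alone was below zero (left) or above zero (right), by track (horizontal axis). Bars are the deposited values and diamonds the values after quantile normalization, which lowers the untreated bar on the left from 1950 to 963 and raises that on the right from 284 to 814.

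Members occurred on all 19 autosomes, at uneven density. Chromosome 6 held the most, with 253 bins in 49 regions, which is 4.34% of its bins and 9.68% of its progenitor A bins. Chromosome 13 followed with 182 bins in 38 regions (3.92%). By share of bins chromosome 16 came next, with 97 bins in 21 regions (2.55%). The lowest shares were on chromosome 11, with 35 bins in 10 regions (0.737%), and chromosome 5, with 50 bins in 14 regions (0.855%), and the median over chromosomes was 1.90%. Since PC1 is computed for each chromosome by itself, a chromosome's share also carries where its own zero falls. With each chromosome cut into 10 stretches of equal length, members made up 1.34% and 1.36% of bins in the first and second stretches, and 1.64% to 2.67% in the others. Of progenitor A bins, members were 3.78% and 3.17% in the first and second stretches, and 3.32% to 6.73% in the others.

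The regions lay near one another. The median distance to the nearest other region was 325 kb, beside 800 kb for mirror regions and 575 kb for regions A in progenitors alone, sets that are smaller and so have fewer neighbours to find. Another region lay within 1000 kb in 337 of 471 (71.5%) and within 250 kb in 212. The richest 5 Mb window, in steps of 1 Mb from the start of each chromosome, was on chromosome 13 (93000001 to 98000000), with 44 member bins in 10 regions. Of its bins, 100% were A in progenitors, 71% in resting neutrophils, and in activated ones 94.5% at 15 min and 95% at 30 min. These 10 regions broke up a single progenitor A segment (92975001 to 98025000, 5050 kb), the one with the most member regions.

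The next window was on chromosome 16 (33000001 to 38000000), with 43 member bins in 5 regions. There 100% of bins were A in progenitors and at both activated times, and 78.4% in untreated neutrophils, so every bin that left A in this window did so in the untreated track alone. A window on chromosome 6 (80000001 to 85000000) held 40 member bins in 3 regions, among a smaller A share of 63% in progenitors and 43% in untreated neutrophils. Those on chromosome 17 (41000001 to 46000000) and chromosome 12 (75000001 to 80000000) held 38 and 34 member bins in 6 regions each.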

How the data were processed

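The deposited values are PC1 scores of in situ Hi-C from ECOMG cells, 1 track per group, and 2 domain lists of the untreated track. Per the submitters' processing notes, HiC-Pro, Bowtie2, HOMER and deepTools were used with genome build mm9, with versions and settings not given in the sources used here. These scores, as deposited by the authors, have a mean of 0 on each chromosome and are spaced by 25 kb in windows of 50 kb, so they show relative position within a chromosome and not the strength of compartments. The authors' domain scores, also as deposited, equalled the mean untreated PC1 within 0.001 in 2889 of 2889 autosomal domains. The other 148 of 165 samples, which are not Hi-C, were not analysed here.

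Only bins non-zero in every one of the 4 tracks were used (94800 of 95104 autosomal bins in any track). Positive PC1 is called A and negative B by convention. Whether the sign follows gene density was not tested here. Regions named are the 10 longest (ties to the lower untreated mean) and the 10 of 4 or more bins with the largest gap. The members, lists and rules were chosen with earlier results of these data known. Coordinates are 1-based. An annotation or genome of the files' build was not used here, so genes and sequences within the regions are not given and gene lists were not applied. No test was made, since each group has 1 track and the members were chosen on these values. Depth is unknown. The code that finds runs was checked on simulated tracks with planted runs. Python 3.11.15, numpy 2.4.6, pandas 2.3.3, scipy 1.17.1 and matplotlib 3.10.9 were used.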

Additional observations from a re-analysis of the deposited data

Results flagged for a closer look

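Chromosome X lay outside the rule and so outside the values above. On it, 74 of 5844 bins (1.27%) in 20 regions met the same signs and run length, and 13 bins showed the mirror pattern. The longest of these regions spanned 275 kb (mm9, 97075001 to 97350000), with means of 0.623 in progenitors and -0.229 in untreated neutrophils, followed by 0.166 at 15 min and 0.528 at 30 min.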

How the results depend on the processing

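No paired analysis was possible because each group has 1 track. The numbered progenitor and untreated libraries were pooled into theirs, and no track of a single replicate was used here. The member set is sensitive to the distance from zero: with PC1 at least 0.1 from zero in all 4 tracks it had 919 bins in 236 regions (mirror 87), and at least 0.25 from zero 192 bins in 56 regions (mirror 7). At 0.25 the bins alone below or above zero were 100 and 38 for progenitors, 8 and 105 for 15 min, and 0 and 37 for 30 min. Zero at each track's median gave 824 bins in 235 regions (mirror 828), with 1172 bins above zero alone in progenitors, and 392 below and 481 above at 15 min. Quantile normalization gave 963 bins in 268 regions (mirror 814), with 1078 above in progenitors, and 295 below and 417 above at 15 min. Regions numbered 765 with no run rule (mirror 473), 308 with runs of at least 3 bins (mirror 172) and 209 with at least 4 (mirror 118). Over every second bin, so that windows did not overlap, 791 or 777 bins met the rule, in 257 regions each (mirror 99 and 90), which are 1.67% and 1.64% of the bins used, beside 2.06%. Of them, 779 and 767 were among the 1950. The causes of these shifts were not tested. Without asking for the 15 min track the mirror had 916 bins and the members 2428. A running mean over 3 bins gave 1926 bins, 1734 of them among the 1950. Leaving out 1 chromosome at a time gave 1697 to 1915 bins and 422 to 461 regions. The share of islands, 50.7%, was 56.5% with runs of at least 3 bins, 63.6% with at least 4 and 0 with PC1 at least 0.25 from zero, a rule that trims the ends of regions. The depth behind the tracks is unknown and limits what can be said of values near zero.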
